A study of Mus musculus with 32 samples.

Results

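The voltage-gated and potassium ion channel genes described here were the autosomal genes whose symbols begin with Kcn, Scn, Cacn or Hcn, with Kcnq1, Kcnk9 and Cacna2d2 left aside. A gene was kept in a brain region when its strain-informative reads averaged 20 or more per pool. This gave 93 of the 14664 autosomal genes that passed the same read minimum, of 111 channel symbols listed at any depth. In the embryonic brain 86 passed, in the preoptic area (POA) 80 and in the prefrontal cortex (PFC) 84, and 73 passed in each of the 3. Around the minimum, Kcna2 averaged 24.0 reads per pool and was kept in the embryo while Kcnip2 averaged 15.5 and was not. In the POA, Kcnv1 was kept at 26.25 reads and Kcng1 left out at 17.75, and in the PFC Kcnk10 was kept at 20.5 and Scn7a left out at 18.5.

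These genes encode the proteins that make neurons excitable. Sodium channels carry the rising phase of the action potential, potassium channels end it and hold the resting potential, and calcium channels turn voltage into transmitter release and calcium signals. HCN channels open on hyperpolarisation and set rhythmic firing, and inward rectifiers and tandem-pore potassium channels (Kcnj and Kcnk) carry resting conductance in neurons and glia. Many of the pore-forming alpha subunits of sodium, calcium and potassium channels pair with auxiliary subunits (beta, gamma, alpha2delta, Kcnab, Kcnip, Kcnmb). These set the gating of the pore and its place in the membrane. Among the 93 genes were 29 voltage-gated potassium alpha subunits, 10 inward rectifiers, 9 potassium auxiliary subunits and 8 calcium alpha1 subunits. Another 8 were genes of calcium- or sodium-activated potassium channels, with Kcnu1 grouped among them by its symbol only. A further 6 were sodium alpha subunits and 6 were tandem-pore channels. There were also 4 sodium beta, 4 calcium beta, 4 calcium gamma and 2 alpha2delta subunit genes, and 3 HCN genes.

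The study sequenced polyadenylated RNA of F1 mice from both directions of a cross between CAST/EiJ and C57BL/6J (B6), so that a read covering a single-base difference of the strains (a SNP) could be assigned to the maternal or the paternal copy. F1i animals had a CAST/EiJ mother and a C57BL/6J father, and F1r animals the reverse. Whole embryonic brain at day 15 (E15) was represented by 1 pool per cross, each holding RNA of 4 to 5 individuals of unlabelled sex. The POA, a hypothalamic region, and the medial PFC, a cortical region, were taken from adults of 5 weeks, with 1 pool of 8 to 10 animals for each cross and sex. No group carried an engineered allele or a treatment, and all adult animals were of the same age. The pools were the replicates, so the p-values below measure the spread between pools, and no animal was measured on its own.

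Pools held 3508403 to 11225927 informative reads on nuclear chromosomes. The channel genes took 0.367% and 0.399% of the autosomal reads in the 2 E15 pools, 0.684% to 0.708% in the POA and 0.718% to 0.765% in the PFC. Over marker genes measured in both adult regions, summed levels of 4 cortical excitatory neuron genes were 91.1 to 105 in the POA, in reads scaled to a common library size (RPM), and 3071 to 4752 in the PFC. Of 8 preoptic and hypothalamic markers only Esr1 could be compared with the PFC, and it was higher in the POA. The 7 oligodendrocyte markers, genes of myelin-forming glia, summed to 8041 to 8821 in the POA and to 1611 (F1r male), 2061 (F1i female), 3134 (F1i male) and 5481 (F1r female) in the PFC. The PFC F1r female pool stood apart, and it was also the lowest PFC pool for 40 of 81 channel genes, against 26.5% of all genes. The part of these markers in the results below was not tested. In bulk RNA, fewer cells of a type cannot be told apart from less RNA per cell.

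For 9 genes of the allele comparisons 1 SNP each is shown as an example of the sites read, with the B6 reference sequence, 25 bases in the transcript's direction, on mm9. The capital letter marks the SNP at position 13, counted from 1 at the 5′ end, and the substitution gives the B6 base first and the CAST base last. For genes whose allele balance differed between adult regions these are:
Cacng5 coding SNP G13C, chr11:107742948-107742972, minus strand: gcacatccgtccGcaccggaccata
Scn3b coding SNP C13T, chr9:40087112-40087136, plus strand: ggagtttgagttCgaagcacaccgg
Kcnc2 untranslated SNP T13C, chr10:111902452-111902476, plus strand: tgtgcatggaccTgcccactctcac
Kcnd2 coding SNP T13C, chr6:21166490-21166514, plus strand: cactctgctgggTagttctgagaga
Hcn2 coding SNP A13T, chr10:79198018-79198042, plus strand: tgtggggcccgcAttgcccgcacgt
For genes whose alleles differed in both adult regions they are:
Kcnj11 untranslated SNP C13T, chr7:53352855-53352879, minus strand: ggaagccaccatCcttccacctcag
Kcnj16 untranslated SNP A13G, chr11:110887830-110887854, plus strand: ttgtgaagaggcAaggtgggatgca
Kcnk2 untranslated SNP T13C, chr1:191033027-191033051, minus strand: acagatgccaacTgcaggcacagaa
Kcnmb4 untranslated SNP C13T, chr10:115855165-115855189, minus strand: gcaagaggccccCgagaggcccctc

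Reads at these positions give the scale of the signal. At the Cacng5 SNP the CAST base was read 91 times and the B6 base 83 times over the POA pools (52.3% CAST), against 81 and 22 in the PFC (78.6%). At the Scn3b SNP the CAST base took 231 reads and the B6 base 252 in the POA (47.8%), against 184 and 578 in the PFC (24.1%). The Scn3b window holds 2 other listed SNPs, the Kcnmb4 window also 2, and the Kcnd2 and Hcn2 windows 1 each, so reads there can be counted at more than one of them. At the Kcnj11 SNP the CAST share was 28.4% in E15, 32.4% in the POA and 28.6% in the PFC. At the Kcnj16 SNP it was 66.8% in the POA and 67.3% in the PFC.

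The first comparison asked how channel gene expression differed between the POA and the PFC. Reads of both alleles were added over the SNPs listed for both regions, and 81 of the 93 channel genes had enough reads there to be tested with edgeR's quasi-likelihood test, which left 12, among them Kcne2 and Scn9a, without a value. Of these, 61 passed a Benjamini-Hochberg adjusted p of 0.05, 38 higher in the PFC and 23 higher in the POA. Over all 11543 autosomal genes the share called was 56.1%, with 28.1% higher in the PFC and 28.0% higher in the POA. The median log2 difference (PFC minus POA) was 0.29 for the channel genes and -0.02 for all genes. The POA and PFC pools did not overlap for 50 of the 81, or 61.7%, against 50.1% of all genes. Of the 81, 4 met the 20-read minimum only in the PFC, 2 of them called, and 1 only in the POA, not called, while among the 76 that met it in both regions 59 were called. Without the PFC F1r female pool 56 passed, 36 higher in the PFC and 20 in the POA, with 55.7% of all genes called. Below, the values of a region's 4 pools are given in RPM in the order F1i male, F1r male, F1i female, F1r female, and differences are log2 ± SE.

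Kcnmb4, the brain beta subunit of the large-conductance calcium-activated potassium channel (chromosome 10, 115854917 to 115910934), had the largest difference. Its POA values were 21.5, 28.1, 33.3 and 30.0 and its PFC values 408, 299, 434 and 460.1. Every PFC pool was far above every POA pool, and the difference was 3.82 ± 0.14 (adjusted p = 7.6e-10). Exons of Kcnmb4 overlap 2 transcripts of unknown function in the annotation, whose reads cannot be separated from it. Kcnma1, the pore of the same channel, was also higher in the PFC, by 1.18 ± 0.23. Its POA values were 40.5, 44.0, 31.6 and 38.3 and its PFC values 82.7, 117, 109 and 44.7, with the F1r female pool only just above the POA. Of the 6 tested genes of calcium- and sodium-activated potassium channels, 4 were higher in the PFC and Kcnt1 was higher in the POA (-0.43 ± 0.11). Of the small-conductance channels, Kcnn1 (0.49 ± 0.17) lost its call in 5 of 8 fits that left out 1 pool and Kcnn2 (0.43 ± 0.14) in 3 of 8.

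Among 25 voltage-gated potassium alpha subunits, 12 were higher in the PFC, 6 were higher in the POA and 7 did not pass. Electrically silent subunits alter the gating of delayed rectifiers when they assemble with them. Kcnv1 read 6.32, 4.80, 4.79 and 3.94 in the POA against 36.6, 85.8, 66.2 and 49.3 in the PFC, a difference of 3.61 ± 0.27. Kcnf1 differed by 2.01 ± 0.22. Kcng1 met the read minimum only in the PFC, so its values are a description: 2.87, 3.29, 4.09 and 2.49 in the POA against 36.4, 20.2, 30.9 and 24.8 in the PFC. Kcnb2, a pore with which such subunits assemble, was higher in the PFC as well, by 1.5 ± 0.20.

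Kcnh3, an ether-à-go-go type channel of the forebrain, read 27.6, 21.7, 30.6 and 38.7 in the POA against 155, 151, 176 and 146 in the PFC (2.41 ± 0.14). Its relative Kcnh2 went the other way. Kcnh2, the ERG channel, read 24.7, 23.3, 16.9 and 19.7 in the POA against 5.43, 3.05, 5.62 and 4.81 in the PFC, and the difference was -2.12 ± 0.21. Kcnc1, a delayed rectifier of fast-firing neurons, was higher in the POA (-0.82 ± 0.11). The Shaker type subunits Kcna5 (-1.24 ± 0.23) and Kcna6 (-0.86 ± 0.09) were higher in the POA and Kcna4 in the PFC (0.69 ± 0.21, lost without either F1i female pool). Kcna1 and Kcna2, which line axons, did not pass, at 0.21 ± 0.10 and 0.10 ± 0.35. Kcnq5 was higher in the PFC by 1.37 ± 0.23. The call for Kcnq3 (0.83 ± 0.29), an M-current subunit, was lost in 5 of 8 fits without a pool.

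Of 9 inward rectifiers, 6 were higher in the PFC and 2 in the POA. Kcnj10, the Kir4.1 channel of astrocytes and oligodendrocytes, read 137, 123, 130.0 and 122 in the POA against 48.7, 36.3, 54.8 and 43.1 in the PFC (-1.49 ± 0.11). Kcnj16, its Kir5.1 partner, was also higher in the POA (-1.2 ± 0.15). The 4 POA pools were above the 4 PFC pools for both genes, as they were for the oligodendrocyte markers. The 7 astrocyte markers summed to 2699 to 3093 in the POA and 2368 to 2675 in the PFC, also without overlap. Taken singly, 4 of the 7 were called higher in the POA and 1, Slc1a2 (mean 321 in the POA and 487 in the PFC), higher in the PFC. Within the PFC, the F1r female pool had the highest oligodendrocyte sum and the F1i female pool the highest astrocyte sum. Kcnj10 was highest in the F1i female pool and Kcnj16 in the F1r male pool. The part of these markers in the differences of Kcnj10 and Kcnj16 was not tested.

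The G-protein-gated rectifiers that could be tested (Kcnj3, Kcnj6 and Kcnj9) and the strong rectifier Kcnj4 were higher in the PFC. Kcnj5, also G-protein-gated, averaged 144.5 reads per pool in the POA. It was not listed for the PFC, so it could not be compared. Kcnj9 (Kir3.3) read 160.0, 168, 182 and 168 in the POA against 436, 391, 391 and 341 in the PFC (1.19 ± 0.10), and Kcnj3 (Kir3.1) differed by 1.73 ± 0.16. Kcnj4 (Kir2.3) read 27.6, 26.8, 33.7 and 34.5 against 84.8, 84.2, 90.9 and 88.0 (1.5 ± 0.11). Kcnj6, Kcnj11 and Kcnj12 were higher by 0.92, 0.34 and 0.44 (Kcnj11 lost its call in 5 of 8 fits without a pool), which leaves Kcnj2 as the only one of 9 rectifiers tested that did not pass. Among the 6 tandem-pore channels, Kcnk4 (TRAAK) met the read minimum only in the PFC, and its POA level was 0.987 to 2.53. Kcnk2 (-0.43 ± 0.10), Kcnk3 (-0.70 ± 0.19) and Kcnk10 (-0.66 ± 0.22, lost in 4 of 8 fits without a pool) were higher in the POA, and Kcnk1 and Kcnk13 did not pass.

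All 4 sodium alpha subunits tested passed, in both directions. Scn2a1, which encodes Nav1.2 of excitatory neurons' axons, read 105, 116, 91.8 and 96.3 in the POA against 232, 251, 270.4 and 129 in the PFC (1.09 ± 0.17). Scn8a, Nav1.6 of the axon initial segment, was higher in the PFC by 0.74 ± 0.13. Scn1a, Nav1.1 of fast-spiking interneurons, read 78.7, 83.7, 72.2 and 76.4 in the POA against 39.9, 68.2, 51.1 and 29.3 in the PFC (-0.73 ± 0.19), and Scn3a differed by -0.76 ± 0.19. The 8 GABAergic neuron markers summed to 2585 to 2876 in the POA and 1286 to 1643 in the PFC, with 5 of them higher in the POA and 3 in the PFC. The 3 were Pvalb (mean 17.6 in the POA and 29.9 in the PFC), Sst (111 and 612) and Npy (12.5 and 206), and the part of these markers was not tested. The PFC F1r female pool was the lowest PFC pool for Scn1a, Scn2a1, Scn3a and Scn8a alike, and without it the differences were -0.52 for Scn1a and 1.31 for Scn2a1, both still called.

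Of the beta subunits, which anchor and modulate sodium channels, Scn4b had the largest excess in the POA of any channel gene. It read 66.9, 55.4, 69.6 and 66.3 there and 7.56, 11.7, 9.52 and 9.44 in the PFC (-2.75 ± 0.16, adjusted p = 3.6e-08). Scn2b was higher in the POA by a log2 difference of -0.83 ± 0.10, and Scn3b (0.22 ± 0.10) did not pass. The pacemaker genes were also higher in the POA. Hcn2 read 215, 179, 228 and 231 there and 74.4, 72.2, 99.5 and 138 in the PFC (-1.18 ± 0.14). Hcn3 differed by -1.41 ± 0.11, and Hcn4 did not pass (-0.55 ± 0.28). Hcn3 exons overlap those of the neighbouring gene Pklr.

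For calcium channels, 3 of 8 pore genes and 9 of 10 auxiliary genes passed. Cacnb3, a beta subunit that brings the channel to the membrane, read 160.3, 158, 183 and 162 in the POA against 617, 538, 520.0 and 539.6 in the PFC (1.74 ± 0.10). Cacnb1 (1.01 ± 0.12) and Cacnb4 (1.09 ± 0.25) were also higher in the PFC, and Cacnb2 did not pass (0.25 ± 0.12). The call for Cacnb4 was lost at its deepest SNP alone. Cacna2d1 and Cacna2d3 were higher in the PFC by 0.92 ± 0.21 and 0.29 ± 0.11, the latter being lost in 5 of 8 fits without a pool. Of 8 alpha1 subunits 5 did not pass, among them the P/Q-type pore Cacna1a (-0.16 ± 0.11) and the T-type pores Cacna1g (-0.21 ± 0.13) and Cacna1h (-0.09 ± 0.15). The L-type pore Cacna1d (0.46 ± 0.12) and the R-type pore Cacna1e (0.64 ± 0.18) were higher in the PFC. Cacna1c, the other L-type pore, was called higher in the POA at -0.50 ± 0.17, and that call was lost in 6 of 8 fits that left out a pool.

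The Cacng genes include the TARPs, which escort AMPA-type glutamate receptors. Cacng3 read 12.1, 11.6, 15.1 and 16.4 in the POA against 27.4, 45.7, 35.8 and 40.1 in the PFC (1.42 ± 0.16), and Cacng8 differed by 1.25 ± 0.27. Cacng5 read 109, 109, 110.2 and 110.5 in the POA against 55.8, 44.3, 45.9 and 63.7 in the PFC (-1.07 ± 0.13). Cacng4 passed narrowly toward the POA in edgeR (-0.43 ± 0.17), and 7 of 8 fits without a pool, and DESeq2, did not call it. All 6 tested potassium auxiliary genes passed. The calcium-sensing Kcnip3 (1.17 ± 0.12) and Kcnip4 (0.34 ± 0.12, lost in 4 of 8 fits without a pool) and the Shaker beta subunits Kcnab1 (0.76 ± 0.11) and Kcnab2 (0.92 ± 0.11) were higher in the PFC. Kcnip1 (-1.22 ± 0.12) and Kcnab3 (-0.70 ± 0.19) were higher in the POA. Among 14 tested genes that localise or regulate channels, such as Ank3 and Dpp6, 7 were higher in the PFC and 6 in the POA.

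**Figure D1:**
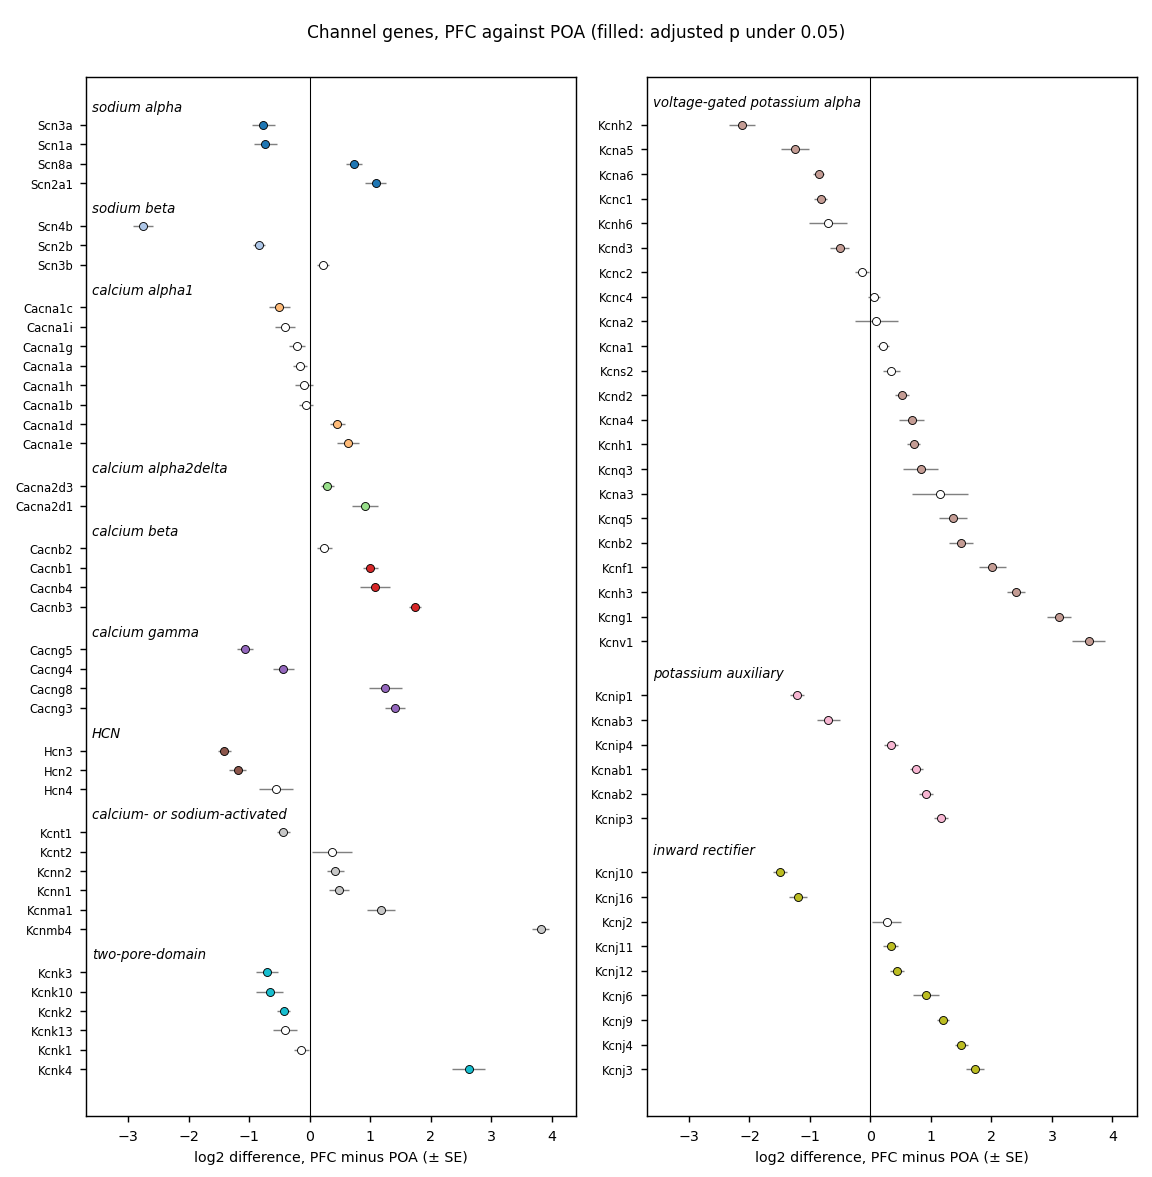
Log2 difference in RPM between PFC and POA (PFC minus POA, x axis) for 77 of the 81 channel genes tested, grouped by channel class on the y axis, with bars of ± SE from edgeR and filled points for adjusted p under 0.05. Kcnmb4 and Kcnv1 lie farthest to the PFC side, at 3.82 and 3.61, followed by Kcng1, which met the read minimum only in the PFC, and Scn4b and Kcnh2 farthest to the POA side, at -2.75 and -2.12.

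The next comparisons set E15 whole brain against each adult region. The embryonic tissue was the whole brain and the adult tissue a dissected region, so age and dissection cannot be told apart. Both comparisons use the same 2 E15 pools, so they are given side by side. Against the POA, 60 of the 82 channel genes with enough reads passed, 47 higher in the POA and 13 higher in E15, where 62.8% of all genes passed (30.8% higher in the POA, 32.0% in E15). Against the PFC, 59 of 83 such genes passed, 51 higher in the PFC and 8 in E15, where 54.0% of all genes passed (26.3% and 27.7%). The median difference (adult minus E15) was 1.0 for the POA and 1.41 for the PFC, while over all genes it was -0.03 and -0.04. Pools did not overlap for 64 of 82 genes (78.0%, all genes 68.0%) and 59 of 83 (71.1%, all genes 60.5%). Among the genes that met the read minimum in both tissues compared, 57 of 76 were called for the POA and 54 of 78 for the PFC. For the POA, 3 genes met it only in the adult, 2 of them called, and 2 only in E15, 1 of them called. For the PFC, 4 met it only in the adult and 1 only in E15, and all 5 were called toward that tissue.

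The E15 pools differed from each other for several genes, for instance Cacnb3 at 568 in F1i and 329 in F1r in the POA comparison. At SNPs shared with the POA, 4 neural progenitor markers summed to 808 (F1i) and 602 (F1r) in E15 and to 121 to 163 in the POA, and 6 oligodendrocyte markers to 165 and 220 in E15 and to 6207 to 6830 in the POA. At SNPs shared with the PFC, the 6 oligodendrocyte markers summed to 147 and 201 in E15 and to 1241 to 4182 in the PFC. The 6 pan-neuronal markers, genes of neurons in general, summed to 2631 and 3522 in E15 and to 3955 to 4424 in the POA, with 4 higher in the POA and 1 in E15 and a median log2 difference of 0.835. Against the PFC they summed to 2406 and 3210 in E15 and to 4490 to 5856 in the adult, with 3 higher in the PFC and 2 in E15 and a median of 1.31. The part of these markers in the results was not tested.

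Among the sodium channel beta subunits, Scn2b had one of the largest adult excesses. It read 18.4 in F1i and 20.1 in F1r at E15, against 649, 606, 745 and 642 in the POA, a difference of 5.10 ± 0.17 (adjusted p = 2.3e-08). In the PFC comparison it read 16.7 and 18.4 against 344, 391, 374 and 353 (4.38 ± 0.22). Scn3b did not pass in either comparison, at -0.07 ± 0.19 and -0.46 ± 0.20.

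The sodium alpha subunits moved in opposite directions. Scn3a, the embryonic Nav1.3 pore, read 138 and 178 at E15 and 70.5, 65.1, 74.1 and 64.6 in the POA (-1.20 ± 0.15). Against the PFC it read 116 and 153 with 32.6, 44.0, 39.0 and 20.3 in the adult (-1.98 ± 0.27). No adult pool reached the E15 values. Scn1a was higher in the POA (1.38 ± 0.16) and in the PFC (0.80 ± 0.31), the latter call being lost in 5 of 6 fits without a pool. Scn8a was higher in both, by 0.96 ± 0.17 and 1.74 ± 0.24. Scn2a1 did not pass for the POA (0.29 ± 0.15) and was higher in the PFC (1.41 ± 0.27). Scn9a, Nav1.7, was tested only for the POA and was higher in E15 (-1.34 ± 0.23).

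The HCN genes went in both directions. Hcn2 read 14.7 and 6.66 at E15 and 237, 196, 253 and 256 in the POA (4.51 ± 0.27), and was higher in the PFC by 3.37 ± 0.39. Hcn4, the slow pacemaker isoform, fell: it read 72.0 and 47.1 at E15 and 18, 17.1, 15.8 and 16.1 in the POA (-1.81 ± 0.19), and differed by -2.74 ± 0.27 from the PFC. Hcn3 did not pass for the POA (0.19 ± 0.15) and was lower in the PFC than in E15 (-1.23 ± 0.19).

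Every inward rectifier that passed was higher in the adult, 8 of 10 for the POA and 8 of 9 for the PFC. The glial Kcnj10 read 3.85 and 5.63 at E15 and 122, 106, 100.5 and 103 in the POA (4.5 ± 0.23), and was 2.89 ± 0.31 higher in the PFC. Kcnj16 was higher by 3.12 ± 0.23 and 2.23 ± 0.28, in the same adult pools in which oligodendrocyte and astrocyte markers were higher than in E15. Kcnj9 was higher by 2.91 ± 0.17 in the POA and 4.28 ± 0.22 in the PFC. Kcnj4 is among the 8 in both comparisons but met the read minimum only in the adult, so its values are a description: 0.913 and 0.751 at E15 and 13.6, 14.9, 17.5 and 19.8 in the POA, and 0.832 and 0.687 against 37.9, 40.1, 37.9 and 34.1 in the PFC comparison.

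Of the voltage-gated potassium alpha subunits, 16 of 25 were higher in the POA and 3 in E15, and 17 of 26 were higher in the PFC and 0 in E15. Kcnh3 read 4.81 and 4.81 at E15 and 121, 119, 145 and 118 in the PFC (4.70 ± 0.24), and 2.18 ± 0.26 higher in the POA. Kcna1 was higher by 2.62 ± 0.20 and 3.13 ± 0.27, and Kcna2 by 2.13 ± 0.28 and 2.27 ± 0.56, the second of these being lost without either E15 pool. Kcnc1 was higher by 1.56 ± 0.13 and 0.79 ± 0.19. Kcnd2, the Kv4.2 pore of the dendritic A-type current, was higher in E15 than in the POA (-0.55 ± 0.13, not called at SNPs 36 or more bases apart), and did not pass for the PFC (0.01 ± 0.19). Kcnv1 was higher in E15 than in the POA (-1.28 ± 0.27) and lower in E15 than in the PFC (2.35 ± 0.31).

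Auxiliary potassium subunits were higher in the adult for 5 of 6 genes tested in the POA and 6 of 7 in the PFC. Kcnab2 read 86.1 and 63.4 at E15 and 466, 435, 451 and 440.3 in the POA (2.59 ± 0.15), and was 3.62 ± 0.25 higher in the PFC. Kcnip1 was the exception in the PFC, at 139.9 and 158 in E15 against 48.3, 51.0, 45.9 and 56.8 (-1.56 ± 0.17). Kcnmb4 did not pass for the POA (0.32 ± 0.21), and read 25.3 and 20.8 at E15 against 417, 306, 447 and 471 in the PFC (4.16 ± 0.25). Kcnmb2, another beta subunit of that channel, met the read minimum only in E15. At the SNPs shared with an adult region it read no more than 6.78 RPM in any pool. Over all 14 of its E15 SNPs it had 213 reads in F1i and 312 in F1r, so the RPM values cover only a part of its reads.

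Cacng4, a TARP, had the largest embryonic excess. It read 206 and 108 at E15 and 25.6, 21.8, 20.6 and 20.5 in the POA (-2.78 ± 0.20), and 188 and 98.7 against 22.7, 12, 17.0 and 10.9 in the PFC (-3.18 ± 0.20). The other 3 gamma genes were higher in the POA, Cacng3 by 1.80 ± 0.30, Cacng8 by 1.38 ± 0.31 and Cacng5 by 1.04 ± 0.17. In the PFC, Cacng3 (3.21 ± 0.33) and Cacng8 (2.65 ± 0.55) were higher and Cacng5 did not pass (0.14 ± 0.23). Cacnb3 was higher in E15 than in the POA (-1.26 ± 0.16) and did not pass for the PFC (0.48 ± 0.20). Of the T-type pores, Cacna1i was higher in both adult regions (2.62 ± 0.20 and 2.25 ± 0.29), while Cacna1h was called higher in E15 at -0.59 ± 0.22 and -0.65 ± 0.18. Both Cacna1h calls depended on single pools, being lost in 4 of 6 and 2 of 6 fits without a pool. Of the channel-localising genes, 9 of 15 were higher in the POA and 2 in E15, and 7 of 14 were higher in the PFC and 1 in E15.

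**Figure D2:**
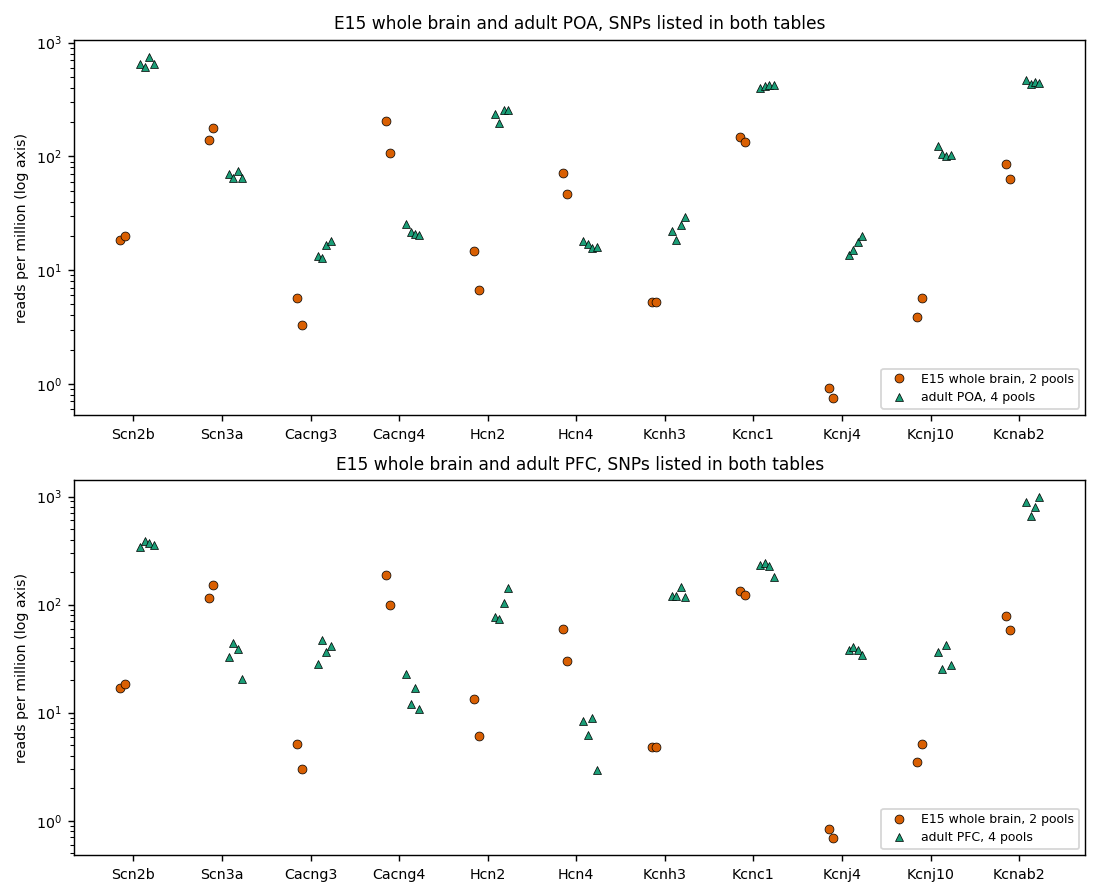
RPM (log axis) in each pool of E15 whole brain (circles, 2 pools) and of adult POA (upper panel) or PFC (lower panel, triangles, 4 pools each) for 11 channel genes on the x axis. Scn2b reads 18.4 and 20.1 at E15 and 606 to 745 in the POA, while Cacng4 reads 206 and 108 at E15 and 20.5 to 25.6 in the POA.

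Sex and cross direction were compared over the 8 adult pools. None of the 81 channel genes passed for sex, as none did among all genes (0.0%). In edgeR 5 channel genes had an unadjusted p under 0.05, and DESeq2 called 0. The smallest p-values were those of Hcn2 (male minus female -0.45 ± 0.14), Cacng8 (-0.86 ± 0.27) and Kcnn1 (-0.54 ± 0.17), each with an adjusted p of 0.89. None passed for cross, where 0.00866% of all genes did. Again 5 had an unadjusted p under 0.05 and DESeq2 called 0, and the 3 smallest were Kcng1 (F1i minus F1r 0.52 ± 0.19), Cacng4 (0.42 ± 0.17) and Kcnab3 (-0.42 ± 0.19), with adjusted p of 0.97.

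The reciprocal design also allowed the CAST and B6 alleles to be compared within each pool. Most channel genes were close to balanced. The median CAST share was 49.1% in E15, 48.5% in the POA and 48.9% in the PFC, against 48.5%, 49.2% and 48.4% for all genes. Shares between 40% and 60% held for 74 of 86, 75 of 80 and 73 of 84 channel genes, or 86.0%, 93.8% and 86.9%, against 81.9%, 88.5% and 84.1% of all genes. In E15, 4 of 86 passed, 1 toward CAST and 3 toward B6 (11.9% of all genes, 3.9% and 8.0%), in the POA 22 of 80 (28.6%), and in the PFC 30 of 84 (36.0%). The calls favoured B6, with 16 of 22 POA calls and 21 of 30 PFC calls. The calls over all genes did so too, with 16.9% and 24.4% of genes toward B6 and 11.7% and 11.6% toward CAST. Over all autosomal reads the CAST share was below 50% in every pool, from 47.2% (PFC F1i male) to 49.5% (POA F1r female). The cause of this lean was not tested. DESeq2 called 3 in the POA and 16 in the PFC.

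Kcnj11, the Kir6.2 pore of ATP-sensitive potassium channels, was read mostly from the B6 allele. Its CAST share was 34.9% of 441 reads in the F1i and 38.5% of 205 reads in the F1r pool at E15. In the POA it was 29.8%, 31.9%, 29.6% and 46.7% and in the PFC 29.9%, 33.7%, 29.1% and 26.0%. The POA F1r female pool was nearer to balance than the other 9. The log2 CAST to B6 ratio was -0.79 ± 0.16 in E15, -0.89 ± 0.12 in the POA and -1.26 ± 0.10 in the PFC. Of 18 SNPs with 20 or more reads, 18 were below 50% CAST in the POA and 17 in the PFC.

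Kcnj16 was read mostly from the CAST allele. The share was 68.0%, 61.1%, 66.5% and 62.2% in the POA against 60.5%, 63.3%, 58.1% and 59.1% in the PFC, with ratios of 0.86 ± 0.06 and 0.60 ± 0.10. All 31 SNPs of sufficient depth were above 50% in the POA and 19 of 23 in the PFC. In E15 it had 68 and 107 reads and was not called. Scn9a had a share of 62.5% to 69.5% in the POA (0.84 ± 0.16), but its SNPs of sufficient depth were divided, with 4 of 8 above and 4 below 50%. Its exons overlap the gene model Gm13629.

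Kcnmb4 favoured B6 in the adult, at 38.7%, 33.3%, 38.6% and 38.9% CAST in the POA (-0.72 ± 0.13) against 44.6%, 43.4%, 41.1% and 41.9% in the PFC (-0.43 ± 0.05). The tandem-pore genes Kcnk1 and Kcnk2 did so too. Kcnk1 had ratios of -0.49 ± 0.08 and -0.59 ± 0.08, with 9 of 9 SNPs below 50% in the POA and 8 of 9 in the PFC. Kcnk2 had shares of 47.2%, 48.6%, 41.3% and 42.4% in the POA (-0.33 ± 0.08) against 40.4%, 37.9%, 41.9% and 39.2% in the PFC (-0.59 ± 0.08). Its POA call was lost without the F1i female or the F1r female pool. In E15 Kcnk10 favoured B6, at 32.8% and 33.5% CAST (-1.01 ± 0.15), and Kcnmb2 favoured CAST, at 70% and 60.3% (0.89 ± 0.20). Of the 14 Kcnmb2 SNPs, 9 had 20 or more reads, and those 9 were all above 50%. The E15 fit had 1 residual degree of freedom, and its 4 calls fell to 0 or 1 under some settings. Cacna1h favoured B6 in all 3 tissues, with ratios of -0.54, -0.26 and -0.48. Of its SNPs with 20 or more reads, 17 of 22 were below 50% CAST in E15 and 17 of 22 in the POA. In the PFC they were divided, with 10 of 19 below and 7 above. Its exons overlap Tpsg1.

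Some of the largest ratios rested on few reads. Kcnip2, an auxiliary subunit of A-type channels, had a PFC ratio of -1.38 ± 0.27 from a single SNP with 28 to 47 reads per pool. Kcnu1 (-1.23 ± 0.32) had 25 to 38 reads per pool, and Kcnk13 (0.85 ± 0.24) had 33 to 61. Kcns1 had 88 to 162 reads and a CAST share of 40.4%, 33.0%, 41.4% and 32.4% (-0.78 ± 0.15). SNPs less than 36 bases apart can count a read more than once, so these numbers are not all independent reads.

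Whether the allele balance itself differed between POA and PFC was tested at SNPs listed for both. Of 78 channel genes, 9 passed, 4 with the CAST share higher in the PFC and 5 with it higher in the POA, against 10.8% of all genes (3.78% and 7.05%). The pools of the regions did not overlap for 15 of the 78, or 19.2%, against 14.8% of all genes. They include 8 of the 9 called genes, with Scn2b the exception.

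Cacng5 (chromosome 11, 107735919 to 107776369, minus strand), a gamma subunit known as an AMPA receptor partner, had the largest such difference. Its CAST share was 60.2%, 55.2%, 58.3% and 56.3% in the POA against 76.7%, 85.7%, 78.2% and 77.3% in the PFC. The change in the log2 ratio was 1.48 ± 0.15 (adjusted p = 5.1e-07). All 19 SNPs with 20 or more reads in both regions had a higher CAST share in the PFC, from 65.9% to 96.6% there and 44.4% to 77.1% in the POA. At E15 the share was 48.6% of 591 reads in F1i and 52.6% of 447 in F1r. The gene was lower in the PFC than in the POA (above), and its PFC share rests on 189 to 331 reads per pool.

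Scn3b, the beta3 subunit of sodium channels (chromosome 9, 40076801 to 40099203, plus strand), differed in the other direction. Its CAST share was 45.9%, 49.0%, 48.0% and 46.7% in the POA against 28.4%, 32.5%, 33.0% and 36.8% in the PFC, a change of -0.88 ± 0.09 (adjusted p = 9.8e-07). The difference was uneven along the transcript. Over the 5 coding SNPs the share was 48.6% in the POA and 25.9% in the PFC, and over the 12 untranslated SNPs 46.5% and 42.9%. The coding values come mainly from 4 SNPs at transcript positions 772, 796, 799 and 806, which lie within a read length of one another. The untranslated SNPs ranged from 31.6% to 68.1% in the POA and from 21.0% to 55.5% in the PFC, with 7 of 12 lower in the PFC. At E15 the CAST share was 51.8% of 1142 reads in F1i and 46.1% of 2129 in F1r. It was read on another transcript, with 1 coding and 15 untranslated SNPs placed. Most of the 5 coding SNPs read in the adults are therefore not covered by the E15 share. Total Scn3b levels in the POA and PFC did not pass the expression test.

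Kcnc2, a Kv3.2 pore of fast-spiking interneurons (chromosome 10, 111708179 to 111903360), had a CAST share of 47.0%, 43.9%, 46.2% and 44.4% in the POA against 54.1%, 52.5%, 55.4% and 56.6% in the PFC (0.54 ± 0.09, adjusted p = 4.5e-04). Its difference lay in the untranslated SNPs, at 45.9% and 55.8%, and was small over the coding SNPs, at 43.5% and 44.0%. Kcnd2 had 50%, 46.6%, 50.6% and 47.5% in the POA against 55.3%, 51.9%, 55.3% and 56.3% in the PFC (0.34 ± 0.09). Over its coding SNPs the share was 48.5% and 56.1%, and over its untranslated SNPs 48.8% and 52.0%. Cacna2d1 went the same way, from 47.7% to 49.3% in the POA to 51.6% to 60.8% in the PFC (0.40 ± 0.13).

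Of the genes with a lower CAST share in the PFC, Kcnj10 had 48.2%, 50.9%, 50.2% and 48.0% in the POA against 37.4%, 36.8%, 40.2% and 43.3% in the PFC (-0.56 ± 0.12), with 4 of 4 SNPs lower. Hcn2 had 49.7%, 53.4%, 49.6% and 51.7% against 46.7%, 40.9%, 43.5% and 44.2% (-0.42 ± 0.10). Kcnip4 differed by -0.42 ± 0.11, with 7 of 10 SNPs lower in the PFC. Scn2b differed by -0.20 ± 0.06, but only 9 of its 20 SNPs were lower in the PFC and 11 were higher. For Cacng5, Scn3b, Kcnc2, Kcnj10 and Hcn2 no left-out pool ended the call. Cacng5 and Scn3b were also called in every other setting run, while Kcnc2, Kcnj10 and Hcn2 were not called at the deepest SNP alone, nor Kcnj10 and Hcn2 by DESeq2. Kcnip4 and Kcnd2 lost it without 2 of the 8 pools, and Cacna2d1 and Scn2b without 6 of 8.

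**Figure D3:**
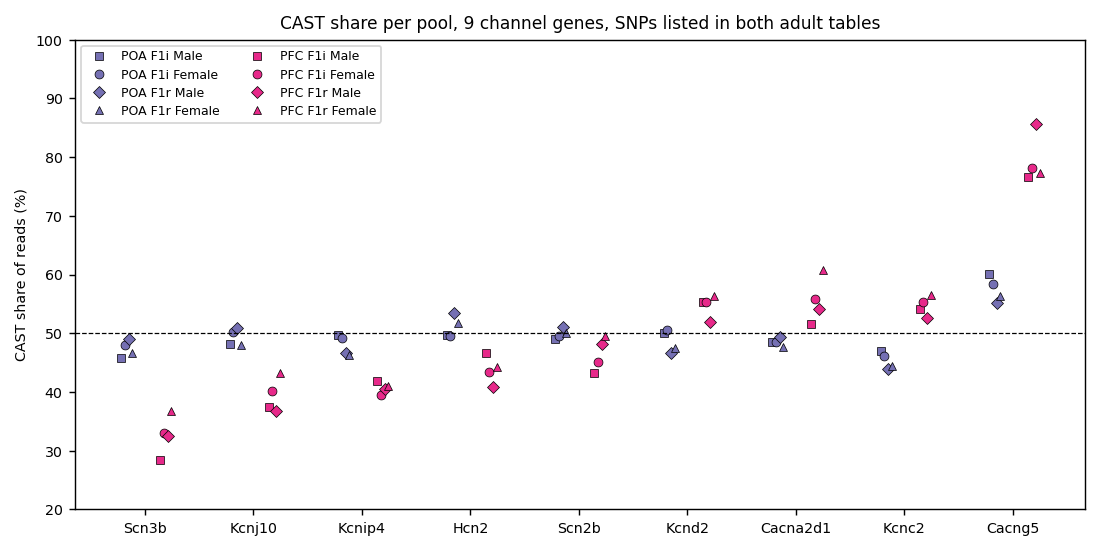
CAST share of reads (%, y axis) in each of the 4 POA and 4 PFC pools for the 9 channel genes whose allele balance differed between the regions (x axis), with marker shapes for cross and sex and a dashed line at 50%. Scn3b lies lower in the PFC (28.4% to 36.8%) than in the POA (45.9% to 49.0%), and Cacng5 higher (76.7% to 85.7% against 55.2% to 60.2%).

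**Figure D4:**
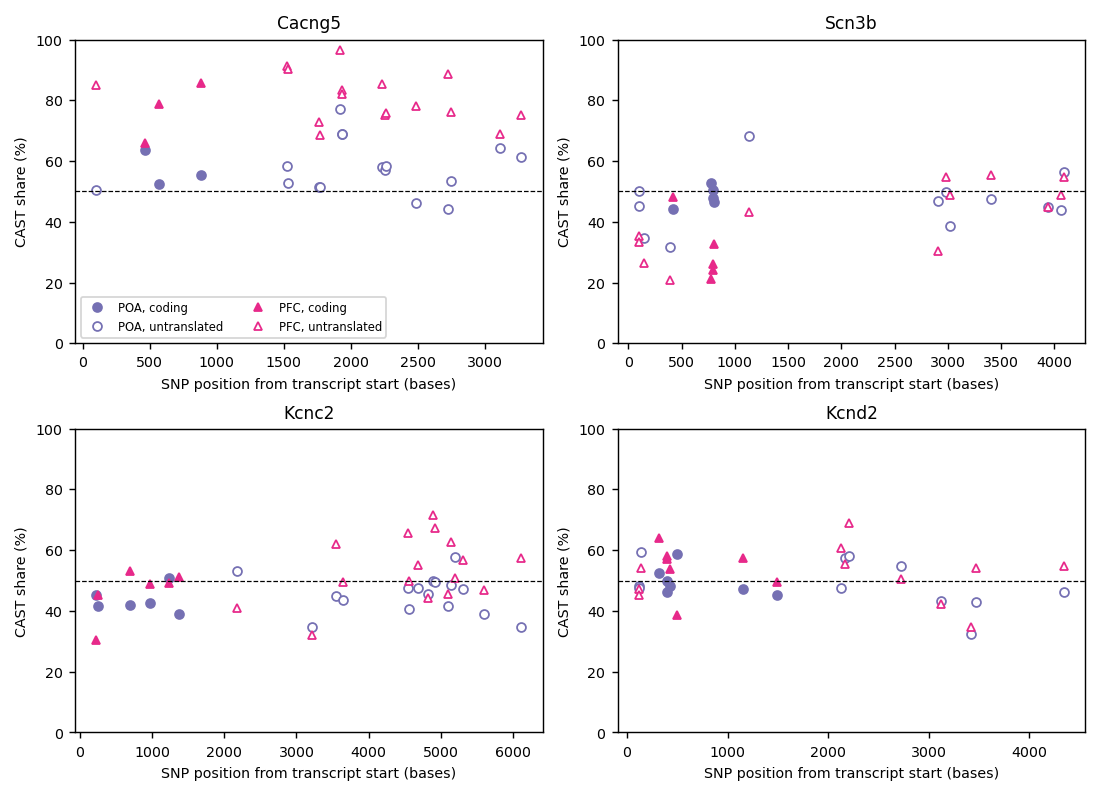
CAST share (%, y axis) at each SNP with 20 or more reads in both regions, against its distance in bases from the transcript start, for Cacng5, Scn3b, Kcnc2 and Kcnd2, with POA circles, PFC triangles, filled marks for coding and open marks for untranslated SNPs. For Cacng5 all 19 SNPs are higher in the PFC, and for Scn3b the coding SNPs are at 25.9% in the PFC and 48.6% in the POA.

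Parental bias was the question the reciprocal cross was built for. A call needed a passed test and, as a second criterion, that F1i and F1r both leaned to the mother or both to the father. In the adult regions no channel gene was called: 0 of 80 in the POA (1.1% of all genes, 0.296% maternal and 0.809% paternal), 0 of 84 in the PFC (0.435%, with 0.136% and 0.299%) and 0 of 78 over all adult pools (0.721%, with 0.231% and 0.49%). In edgeR 6, 5 and 3 of these genes had an unadjusted p under 0.05, and DESeq2 called 0 in each. The SE of the F1i minus F1r difference in the log2 CAST to B6 ratio had a median over these genes of 0.20 in the POA, 0.21 in the PFC and 0.14 over all adult pools. With so few pools per cross, the lack of calls does not show that both parental copies were read equally. Among the genes with the smallest p-values, Kcnj11 had an F1i minus F1r difference in the log2 CAST to B6 ratio of -0.70 ± 0.24 in the POA (adjusted p = 0.29), Kcnip3 had one of -0.42 ± 0.13 in the PFC (adjusted p = 0.46), and Kcnip3 had one of -0.32 ± 0.10 over all adult pools (adjusted p = 0.28).

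In E15, where Fisher's exact test between 2 pools covers counting error only, 5 of 86 channel genes were called, all maternal, against 4.93% of all genes (3.26% maternal and 1.67% paternal). Kcnd2 had a maternal share of 55.3% in F1i (95% Clopper-Pearson interval 52.9 to 57.7) and 52.9% in F1r (50.7 to 55). Kcnip1, a Kv4 partner, had 52.1% (49.6 to 54.7) and 54.1% (51.8 to 56.4). Scn3b had 51.8% (48.9 to 54.8) and 53.9% (51.7 to 56.0), Cacna2d3 55.6% (51.4 to 59.6) and 52.6% (49.3 to 55.9), and Kcnmb4 54.7% (48.6 to 60.7) and 57.9% (51.4 to 64.1). For 4 of the 5 genes, all but Kcnd2, the interval of 1 cross included 50%. When counting error was replaced by the between-pool spread of the adults, edgeR called 0 of the 86. In the adult pools the mean maternal share of these 5 genes was 49.4% to 51.6% in the POA and 46.9% to 50.6% in the PFC.

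**Figure D5:**
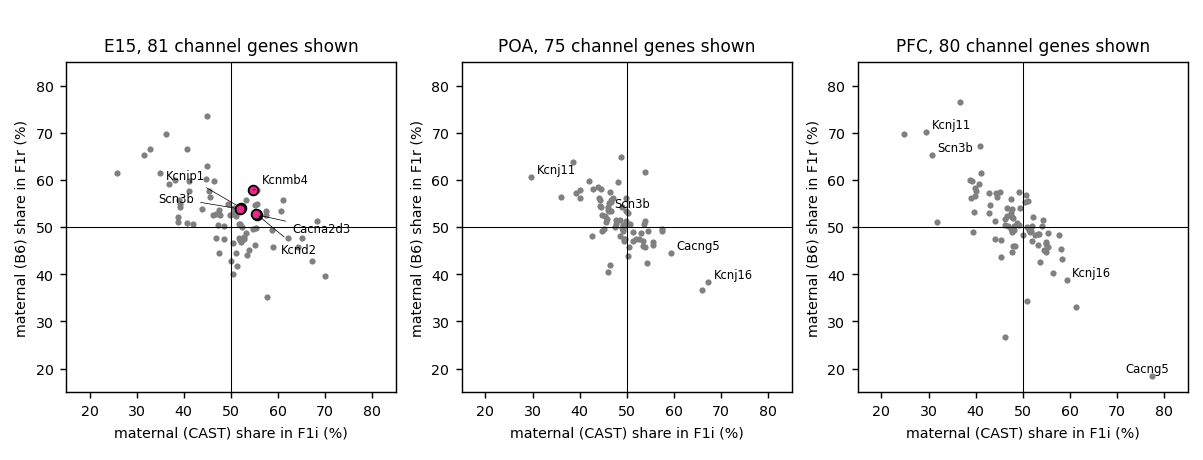
Maternal share of reads (%) in F1i (x axis, CAST mother) against F1r (y axis, B6 mother) for the channel genes reported in E15, POA and PFC, as the mean over the pools of a cross. Genes with a strain difference fall along the descending diagonal, such as Cacng5 in the PFC, and a gene read from the mother's copy in both crosses would lie in the upper right, where the 5 genes called in E15 are all between 51.8% and 57.9%.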

How the data were processed

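Per the submitters' processing notes, reads of 36 cycles were aligned with Novoalign to mm9. The authors deposited, for each region, counts of reads with the CAST and the B6 base at each SNP of a transcript, summed over the technical libraries of a pool (4 in E15, 2 in adults). The libraries number 32, of which the 24 F1 libraries form the 10 pools used here. Adult parental libraries were not used. Every SNP listed for a region had at least 1 read in each of its pools, so expression was compared over SNPs listed for both regions (205738 for POA and PFC, 212074 for E15 and POA, 200848 for E15 and PFC). Repeated listings of a SNP were dropped (2073 in E15, 1056 in the POA, 911 in the PFC). The reads do not tell strand, and 17 of the 93 genes share exon sequence with another gene.

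Counts were summed per gene over autosomes, and edgeR 4.0.16 (quasi-likelihood, R 4.3.3) was fitted across all genes with Benjamini-Hochberg adjustment at 0.05. Expression fits used filterByExpr, TMM scaling and cross (and sex or region in adults) as covariates. Allele fits kept genes with a mean of 20 or more reads per pool and compared alleles within pools. Standard errors were the fold change over the root of the F statistic. Parental bias in E15, with 1 pool per cross, used a two-sided Fisher's exact test, which covers counting error only. RPM are TMM-scaled informative reads on the shared SNPs. The fits were tested on simulated data. Alternatives were DESeq2 1.42.0, other scalings, read minimums and chromosome sets, the deepest SNP of each gene, SNPs 36 or more bases apart and leaving out each pool. Named genes were the 12 with the largest called change per direction in expression (10 for alleles) and a list of 30 channel genes, and further members named to complete a class were chosen after their values were seen. The members and lists were chosen with earlier results of these data known. Positions and exon classes came from GENCODE on NCBIM37 (93 genes matched). Results of a few member genes are not reported here, and the counts over members include them.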

Additional observations from a re-analysis of the deposited data

Results flagged for a closer look

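In 8 of the 83 groups of 4 pools examined, 1 pool lay far from the other 3, where chance marks about 1 in 20 groups. For allele shares, the Kcnj11 CAST share was 46.7% in the POA F1r female pool (next nearest 31.9%), the Kcnmb4 share 33.3% in the POA F1r male pool (38.6%), the Cacng5 share 85.7% in the PFC F1r male pool (78.2%) and the Cacnb2 share 43.8% in the PFC F1r male pool (40.1%). For expression in RPM, Cacnb3 read 183 in the POA F1i female pool (162), Kcnj3 read 26.4 in the POA F1i male pool (19.7), Hcn3 read 33.3 in the PFC F1r male pool (37.3) and Kcna5 read 10.4 in the PFC F1i male pool (4.62).

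The allele balance differed between the adult regions by the test of the difference itself for 9 genes. The log2 CAST to B6 ratio was higher in the PFC by 1.48 for Cacng5, 0.54 for Kcnc2, 0.40 for Cacna2d1 and 0.34 for Kcnd2. The PFC minus POA difference was -0.88 for Scn3b, -0.56 for Kcnj10, -0.42 for Hcn2, -0.42 for Kcnip4 and -0.20 for Scn2b.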

How the results depend on the processing

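The counts of called channel genes in the 3 regional and developmental comparisons stayed within 1.5 times their values at every setting run: 51 to 66 for POA against PFC, 56 to 69 for E15 against POA and 53 to 67 for E15 against PFC. Allele calls depended more on the setting. For CAST against B6 in E15, 4 calls became 1 with DESeq2, 0 with all chromosomes, 0 with no filter on low counts and 2 with SNPs 36 or more bases apart. In the POA, 22 calls became 3 with DESeq2, 12 with all chromosomes and 7 at the deepest SNP alone, and 10 (without F1i female) to 22 without a pool, with 12 without F1r female and 14 without F1i male. In the PFC, 30 calls became 16 with DESeq2 and 18 at the deepest SNP alone. For the difference between POA and PFC, 9 became 3 with DESeq2, 4 at the deepest SNP, and 6 to 10 without a pool. The 5 parental calls in E15 became 2 at the deepest SNP, 3 with SNPs 36 or more bases apart and 0 with the between-pool spread of adults. The POA had 0 parental calls, 1 with SNPs 36 or more bases apart and 0 to 1 without a pool (1 without F1r male). The causes were not tested. At the deepest SNP alone the sign reversed for Kcna1 in POA against PFC (-0.56), Scn2a1 (-0.93) and Cacna1g (-1.06) in E15 against POA, Kcnc1 (-0.29) and Kcnd3 (0.23) in the POA allele comparison, and Cacna2d1 (-0.0201) and Kcnma1 (-0.31) in the PFC allele comparison. No paired analysis was possible on the replicate numbers because they mark technical libraries, whose reads are summed in the columns. Alleles were compared within pools, and a fit of POA against PFC expression with pools of the same cross and sex as blocks, chosen after seeing the data, called 63 channel genes, among them all 61 called without blocks.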

Other observations

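In whole E15 brain of the parental strains, measured in technical libraries only and so with no test, the channel genes as a set leaned to neither strain in total level. The median log2 ratio of CAST/EiJ to C57BL/6J over 76 genes was 0.016, and 5 genes (6.58%) were beyond 1 in either direction, against 6.05% of 11578 genes, with a pseudocount of 1. These were Kcnmb2 (1.64) and Kcnh7 (1.39) toward CAST/EiJ, and Cacng8 (-1.27), Kcna5 (-1.12) and Cacna1h (-1.03) toward C57BL/6J. In the F1 allele comparison of E15, Kcnmb2 (0.89) and Cacna1h (-0.54) were called toward the same strain, Kcnh7 (0.67) and Kcna5 (-1.02) leaned the same way without passing, and Cacng8 (0.14) had the opposite sign and did not pass. They were named here after their values were seen.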
